A study of Mus musculus with 8 samples.

Results

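The genes described here are the Wnt and Notch signalling genes of blood-forming stem cells sorted from mouse fetal liver. They were chosen by name, 22 for the Wnt pathway and 14 for the Notch pathway, and each gene was read from the probe set with the highest mean over 8 arrays among those annotated with that gene alone. Of the 36 genes, 35 had such a probe set, with 84 probe sets in all, out of 18193 genes on the array. Tcf7, which encodes a T cell factor that partners β-catenin, is not analysed here, since no probe set was listed for it.

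The tested embryos were Crebbp+/-, carrying 1 mutant copy of Crebbp, and the controls were wild type, both on a C57BL/6 background. Crebbp encodes CBP, a coactivator of transcription that acetylates histones. The cells were Sca-1+, lineage-negative, AA4.1+ and strongly c-Kit+, and embryos are labelled both 14 and 14.5 dpc (days after mating). Each genotype had 2 numbered samples, each sample combined 15 embryos, and each was measured on 2 Affymetrix arrays after amplification of 12 ng of RNA. The 2 arrays of a sample were averaged, so that n = 2 per genotype, and p-values measure only the spread between these preparations. How the Crebbp allele was made is not in the labels, and pooling hides differences between embryos.

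In the canonical Wnt pathway a secreted Wnt protein binds a Frizzled receptor and its co-receptor Lrp5 or Lrp6, and Dishevelled proteins relay the signal. A destruction complex built on Axin and Apc, with the kinase GSK3, otherwise marks β-catenin for degradation. Spared β-catenin enters the nucleus and works with TCF and LEF proteins, and CBP is one of its coactivators. In the Notch pathway a ligand on a neighbouring cell triggers cleavage of the Notch receptor, whose intracellular part joins the DNA-binding protein Rbpj and the coactivator Mastermind, which recruits CBP or its relative p300. Notch1 signalling is known for directing blood progenitors to the T cell lineage, and Wnt dose affects the self-renewal of blood stem cells.

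Upstream sequences of Lef1, Rbpj and Axin2 are shown because Lef1 was the Wnt gene whose signals lay farthest apart between the genotypes relative to their error, Rbpj is the DNA-binding factor of the Notch pathway, and Axin2 is a standard feedback target of β-catenin. Each run is the 250 bases before the first listed start site, 5′ to 3′, from RefSeq on GRCm38.p6. Lef1 is on chr3:131110047-131110296, Rbpj on chr5:53590096-53590345 and Axin2 on chr11:108920099-108920348, all on the plus strand. Capitals mark matches on either strand to CTTTG, the core of TCF and LEF sites, or to TGGGAA, the core of Rbpj sites.
Lef1: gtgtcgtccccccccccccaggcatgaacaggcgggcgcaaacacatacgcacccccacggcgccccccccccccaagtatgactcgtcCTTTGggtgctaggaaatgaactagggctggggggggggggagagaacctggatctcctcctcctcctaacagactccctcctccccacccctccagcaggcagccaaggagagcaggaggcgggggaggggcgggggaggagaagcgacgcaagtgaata
Rbpj: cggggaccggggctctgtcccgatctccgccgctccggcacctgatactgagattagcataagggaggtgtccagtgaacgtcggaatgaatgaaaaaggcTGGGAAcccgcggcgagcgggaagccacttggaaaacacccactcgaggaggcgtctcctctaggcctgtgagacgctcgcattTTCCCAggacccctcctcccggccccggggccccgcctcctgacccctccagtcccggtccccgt
Axin2: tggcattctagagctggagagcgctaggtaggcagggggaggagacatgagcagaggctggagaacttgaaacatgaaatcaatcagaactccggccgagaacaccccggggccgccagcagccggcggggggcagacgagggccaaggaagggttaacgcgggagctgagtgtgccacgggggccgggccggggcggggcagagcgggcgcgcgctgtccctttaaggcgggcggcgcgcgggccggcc

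The Lef1 window held 1 TCF/LEF core, 161 bases before the start site, and the Rbpj window held 2 Rbpj cores, 149 and 65 bases before it. The Axin2 window held neither run of letters. Over 26 of the genes with a listed promoter, 19 of 35 windows held the TCF/LEF core and 5 of 35 the Rbpj core, against 48.6% and 21.6% of 32851 windows of this length in the genome. No window shown held both motifs. A match is a description of letters and does not show that a factor binds there.

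Signals are GCRMA log2 values, and probe sets count as above the filter when their mean over the 8 arrays exceeds the median of all probe sets, 2.72. The sort markers Kit and Cd93, which encodes AA4.1, lay above it in every sample, with Kit at 9.34 and 9.31 in Crebbp+/- samples 1 and 2 and at 9.36 and 9.05 in wild type. Of 10 measured stem cell markers, all above the filter, 3 were lower in both Crebbp+/- samples, beside 11% of all genes, and none was higher in both. The 3 are named because each had an unadjusted limma p under 0.05 (adjusted p of 0.99), as 1.28% of all genes did in that direction. Meis1 differed by -1.26, Hlf by -0.54 and Mecom by -0.38, the last pair with all arrays separated, beside 1.99% of all genes. The other stem cell markers overlapped between genotypes and ran from -0.12 (Tal1) to 0.20 (Gata2), and the median of the 10 was 0.03. The part of Meis1, Hlf and Mecom in the Wnt and Notch values was not tested. The Crebbp probe set with the highest mean read 11.95 and 11.66 in Crebbp+/- and 12.07 and 11.41 in wild type. Of the other 3 Crebbp probe sets 1 differed by 0.01, and 2 were lower in both Crebbp+/- samples, by -0.42 (SE 0.29) and -0.35 (SE 0.24). The removed part of the gene is not in the labels, so these values do not check the genotype. Hepatocyte transcripts differed between the 2 wild-type samples. Alb read 5.85 and 5.74 in Crebbp+/- and 2.43 and 7.06 in wild type. The 5′ minus 3′ signal of the Gapdh control, which falls as RNA degrades, was -0.89 and -1.88 in Crebbp+/- samples 1 and 2 and -1.22 and -2.59 in wild type. It was thus higher in Crebbp+/- within each number, and its part in the genotype differences was not tested.

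Of the Wnt genes with a probe set, 18 of 21 were above the filter, and of the Notch genes 8 of 14, against 58.3% of all genes. The Wnt genes below it were Fzd1, a Frizzled receptor, Dvl3, a Dishevelled protein, and Axin2. The Notch genes below it were the ligands Dll1 and Dll4, the receptor Notch4, the target genes Hes1 and Hey1, and Dtx1, an E3 ligase of the pathway. Axin2 read 2.46 and 2.29 in Crebbp+/- samples 1 and 2 and 2.32 and 2.23 in wild type. Hes1, a transcriptional repressor that Notch induces in many tissues, read 2.17 and 2.18 in Crebbp+/- and 2.17 and 2.21 in wild type. Both lay below the filter in all 4 samples, which describes these probe sets and does not show that the transcript is absent. For Hes1, Hey1, Dll1 and Dvl3 there was 1 probe set each.

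**Figure D1:**
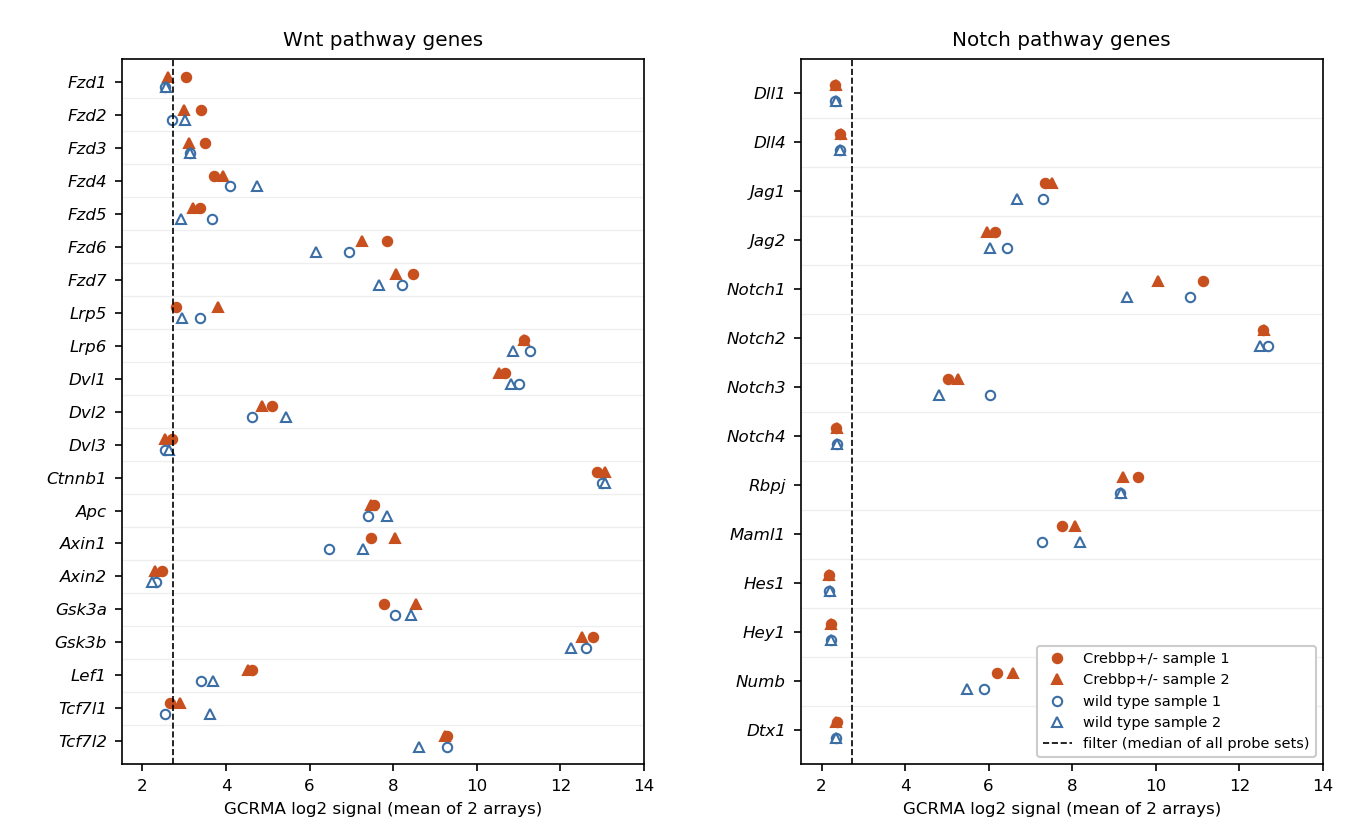
GCRMA log2 signal (horizontal axis, mean of 2 arrays) of 21 Wnt and 14 Notch genes in each of the 4 samples, Crebbp+/- filled and wild type open, with the filter of 2.72 as a dashed line. Lef1 is separated by genotype, Notch1 is spread mainly by sample number (circles against triangles), and Axin2, Hes1, Hey1, Dll1, Dll4, Notch4 and Dtx1 lie left of the filter.

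Crebbp+/- and wild type were compared to ask whether loss of 1 copy of CBP goes with another level of these genes. None of the 18 Wnt and 8 Notch genes above the filter passed the test, a limma fit over all 22518 probe sets above the filter with Benjamini-Hochberg adjustment at 0.05, and the lowest adjusted p among them was 0.99. None of the 10600 genes tested passed either, a background of 0%. At an unadjusted p under 0.05 the fit picked 1 Wnt gene, Lef1, and no Notch gene, where 1.39% of all genes were picked as higher and 1.28% as lower in Crebbp+/-. The smallest p an exact permutation test of 2 against 2 samples can give is 0.33, and none was run.

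Differences below are Crebbp+/- minus wild type on the log2 scale with the standard error of that fit. They were positive for 11 of 18 Wnt genes, with a median of 0.11, and for 5 of 8 Notch genes, with a median of 0.21. Over all genes tested the median was 0.04 and 56.9% were positive. The Notch median was 0.015 without wild-type sample 2 and 0.022 without Crebbp+/- sample 1. The Wnt median was 0.22 without wild-type sample 1 and 0.0083 without the second array of Crebbp+/- sample 1. Both Crebbp+/- samples lay above both wild-type samples for 3 Wnt genes (Fzd6, Axin1 and Lef1) and 3 Notch genes (Jag1, Rbpj and Numb), beside 17.1% of all genes. They lay below for 2 Wnt genes (Fzd4 and Dvl1) and no Notch gene, beside 11% of all genes. All 4 Crebbp+/- arrays lay above all 4 wild-type arrays for Lef1 and Axin1, 2 of 26 members, beside 3.68% of all genes, and below for none, beside 1.99%.

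**Figure D2:**
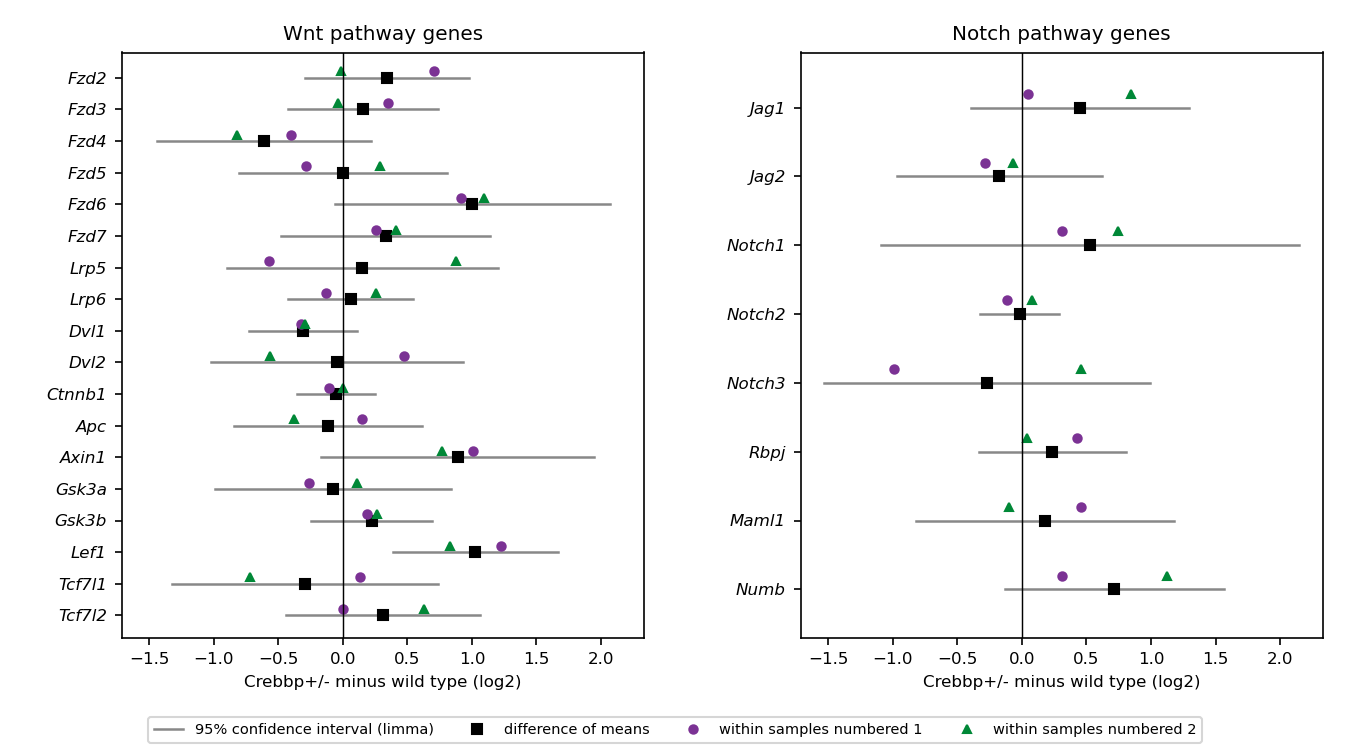
Difference of Crebbp+/- minus wild type (horizontal axis, log2) for the 18 Wnt and 8 Notch genes above the filter, as black squares with the 95% confidence interval of the limma fit, and within the samples numbered 1 (circles) and 2 (triangles). Only the interval of Lef1 lies wholly on one side of 0, and the adjusted p of Lef1 is 0.99.

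Among Wnt receptors, Fzd6 and Fzd4 had differences of opposite sign. Fzd6, a Frizzled known mainly from planar cell polarity, read 7.86 and 7.25 in Crebbp+/- samples 1 and 2 and 6.94 and 6.16 in wild type. The genotypes did not overlap in the sample means, but the lowest Crebbp+/- array lay just under the highest wild-type array, 7.05. The difference was 1.00 (SE 0.41, 95% interval -0.06 to 2.07, limma adjusted p = 0.99), with 0.91 and 1.09 within the samples numbered 1 and 2. It was 0.61 without wild-type sample 2 and at most 1.40, without wild-type sample 1. Its other probe sets were below the filter.

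Fzd4, a receptor for Wnt proteins and norrin that endothelium also uses, read 3.70 and 3.93 in Crebbp+/- and 4.10 and 4.75 in wild type. The 2 arrays of Crebbp+/- sample 1 lay far apart, at 2.89 and 4.52, and the genotypes overlapped in single arrays. The difference was -0.61 (SE 0.32, 95% interval -1.44 to 0.22). It was -0.20 without the first and -1.02 without the second array of Crebbp+/- sample 1, and -0.93 without wild-type sample 1 and -0.29 without wild-type sample 2. Of 9 endothelial markers 5 were above the filter, and Cdh5, Kdr, Stab2 and Lyve1 were not. The summed linear signal of the 9 was 2074 and 2025 in Crebbp+/- samples and 2514 and 2253 in wild type. Egfl7 was the largest term of this sum in every sample, at 10.15 and 10.32 in Crebbp+/- and 10.58 and 10.56 in wild type. Of the 5 above the filter, Pecam1, Egfl7 and Esam were lower in both Crebbp+/- samples, beside 11% of all genes above the filter. Cdh5, below the filter, was also lower in both, at 2.38 and 2.39 in Crebbp+/- and 2.40 and 2.58 in wild type. Tek, which is also on the stem cell list here, and Emcn overlapped between genotypes, at 0.06 (SE 0.23) and -0.03 (SE 0.61). The part of these markers in the Fzd4 difference was not tested. In sorted cells measured in bulk, fewer cells of a type and less RNA per cell cannot be told apart.

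The other Frizzled genes above the filter, Fzd2, Fzd3, Fzd5 and Fzd7, differed by 0.34, 0.15, 0.0024 and 0.33. Only Fzd7, a receptor of the canonical pathway, had 1 direction within both sample numbers, with 0.25 and 0.41. Its samples overlapped, at 8.47 and 8.08 in Crebbp+/- and 8.22 and 7.67 in wild type. Omitting a Crebbp+/- sample gave Fzd7 differences of 0.13 (number 1 left out) and 0.53 (number 2 left out), and omitting a wild-type sample gave 0.61 (number 1) and 0.055 (number 2). Fzd2 lay just below the filter in wild-type sample 1. The co-receptors Lrp5 and Lrp6 differed by 0.15 (SE 0.40) and 0.06 (SE 0.19). Lrp5 took opposite signs within the 2 numbers, at -0.57 and 0.88.

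β-catenin itself showed little difference at its highest probe set. Ctnnb1, which encodes it, read 12.88 and 13.07 in Crebbp+/- samples 1 and 2 and 12.99 and 13.06 in wild type. The samples overlapped, and the difference of -0.05 (SE 0.12) had a 95% interval of -0.35 to 0.25. The other probe sets, both dimmer, differed by 0.45 (SE 0.47) and 1.09 (SE 1.19), and both went with the sample number. The dimmest read 6.13 and 3.74 in Crebbp+/- samples 1 and 2 and 5.19 and 2.49 in wild type, below the filter in wild-type sample 2. Of the Dishevelled genes, Dvl1 was lower in both Crebbp+/- samples, by -0.33 and -0.29 within the numbers 1 and 2 (difference -0.31, SE 0.16), and Dvl2 differed by -0.04 (SE 0.37).

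In the destruction complex, Axin1 stood apart by genotype in every array. This scaffold, on which β-catenin is phosphorylated, read 7.47 and 8.04 in Crebbp+/- samples 1 and 2 and 6.46 and 7.28 in wild type. Crebbp+/- arrays ran from 7.42 to 8.25 and wild-type arrays from 6.39 to 7.29. The difference was 0.89 (SE 0.41, 95% interval -0.17 to 1.95, limma adjusted p = 0.99), with 1.01 and 0.77 within the samples numbered 1 and 2. Sample 2 exceeded sample 1 by 0.58 in Crebbp+/- and by 0.82 in wild type, so the wild-type samples differed from each other by nearly as much as the genotypes. The difference was 0.48 without wild-type sample 1 and 1.30 without wild-type sample 2, the ends of its range with 1 sample or array omitted.

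The other members of the complex had smaller differences. Apc, the second scaffold, differed by -0.11 (SE 0.28), and its 2 dimmer probe sets by 0.31 and -0.44. The kinase genes Gsk3a and Gsk3b differed by -0.07 (SE 0.35) and 0.22 (SE 0.18). The 6 Gsk3b probe sets above the filter did not share a direction and ran from -0.76 to 0.33. The one with the most negative difference read 4.39 and 4.09 in Crebbp+/- and 4.96 and 5.05 in wild type, with an SE of 0.27. It is named because its unadjusted p was under 0.05 (limma adjusted p = 0.99). The dimmest of the 6 read 2.52 and 2.51 in Crebbp+/- and 2.89 and 2.97 in wild type. Both Crebbp+/- samples lay below the filter, so that probe set passed it only through the wild-type arrays.

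Lef1 had the lowest unadjusted p of all 26 members above the filter. Lef1, a partner of β-catenin that is known from early B and T cell development, read 4.63 and 4.52 in Crebbp+/- samples 1 and 2 and 3.41 and 3.69 in wild type. All 4 Crebbp+/- arrays, from 3.81 to 5.23, lay above the wild-type arrays, from 3.15 to 3.74. Both extremes of Crebbp+/- came from sample 2. The difference was 1.03 (SE 0.24, 95% interval 0.39 to 1.66, limma adjusted p = 0.99), with 1.23 and 0.83 within the samples numbered 1 and 2. With 1 sample or array omitted it ran from 0.67, without the first array of Crebbp+/- sample 2, to 1.38, without the second. The second Lef1 probe set was below the filter in all samples, at 2.26 in each.

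Of 8 measured lymphoid markers 4 were above the filter (Cd79b, Il7r, Rag1 and Thy1), and the T and B cell genes Cd3e, Cd3g, Cd79a and Pax5 were below it. Their summed linear signal was 506 and 619 in Crebbp+/- samples 1 and 2 and 423 and 530 in wild type, which overlap, and it is set mainly by Cd79b and Il7r. Rag1, which encodes a recombinase of antigen receptor genes, was separated by genotype in all arrays, as Lef1 was, beside 3.68% of all genes. The separation of Rag1 was narrow, with nearest arrays of 3.29 in Crebbp+/- and 3.27 in wild type, and wild-type sample 2 lay below the filter. Rag1 read 3.81 and 3.80 in Crebbp+/- samples 1 and 2 and 3.27 and 2.59 in wild type, a difference of 0.87 (SE 0.29). Il7r, the receptor for interleukin 7, differed by 0.73 and 0.66 within the numbers 1 and 2, with overlapping samples. Cd79b and Thy1 went the other way, by -0.05 (SE 0.23) and -0.10 (SE 0.23), also with overlapping samples. Rag1 and Il7r were named after their values were seen, and the part of lymphoid transcripts in the Lef1 difference was not tested. Tcf7l2, which serves as a β-catenin partner in many tissues, read 9.29 and 9.24 in Crebbp+/- and 9.29 and 8.61 in wild type, a difference of 0.31 (SE 0.29), and its 3 dimmer probe sets differed by -0.14 to 0.06. Tcf7l1, a TCF protein that acts largely as a repressor, differed by -0.29 (SE 0.40) and read below the filter in Crebbp+/- sample 1 and wild-type sample 1.

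Among Notch ligands, Jag1 was above the filter and higher in both Crebbp+/- samples. It read 7.34 and 7.51 in Crebbp+/- samples 1 and 2 and 7.29 and 6.67 in wild type. The margin between the nearest samples was 0.05, and the difference was 0.45 (SE 0.32). It was 0.12 without the second array of wild-type sample 2 and 0.78 without the first, and 0.14 without that whole sample and 0.76 without wild-type sample 1. Jag2 differed by -0.18 (SE 0.30) with overlapping samples.

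The receptors Notch1 and Notch2 gave different pictures. Notch1 read 11.13 and 10.06 in Crebbp+/- samples 1 and 2 and 10.82 and 9.31 in wild type, so the samples sorted by number and not by genotype. The difference was 0.53 (SE 0.62, 95% interval -1.09 to 2.15), with 0.31 and 0.75 within the 2 numbers, and its dimmer probe set differed by -0.18 (SE 0.30). Without wild-type sample 2 the Notch1 difference was -0.22, and without wild-type sample 1 it was 1.28. Notch2, a receptor that contributes to early blood progenitors and marginal zone B cells, read 12.56 and 12.58 in Crebbp+/- and 12.67 and 12.50 in wild type. Its difference of -0.02 (SE 0.12) had a 95% interval of -0.33 to 0.29. Notch3 took opposite signs within the numbers, at -0.99 and 0.46.

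In the Notch transcription complex, Rbpj was above the filter at all 3 of its probe sets, each with a positive difference. The one with the highest mean read 9.58 and 9.21 in Crebbp+/- samples 1 and 2 and 9.15 and 9.17 in wild type, a margin of 0.04 between the nearest samples. Its difference was 0.24 (SE 0.22), and the others differed by 0.52 (SE 0.65) and 0.59 (SE 0.33). The difference of 0.24 was 0.052 without Crebbp+/- sample 1, 0.089 without its first array, 0.38 without its second and 0.42 without Crebbp+/- sample 2. The probe set with a difference of 0.59 read 7.62 and 7.12 in Crebbp+/- and 7.01 and 6.55 in wild type. That with 0.52 read 9.50 and 8.42 in Crebbp+/- samples 1 and 2 and 9.22 and 7.66 in wild type. Its genotypes overlapped, and it went with the sample number, as Notch1 did. Maml1, the Mastermind coactivator, differed by 0.18 (SE 0.38). A dim second Maml1 probe set read 3.43 and 3.50 in Crebbp+/- and 2.94 and 2.89 in wild type, a difference of 0.55 (SE 0.18). All its arrays were separated, the nearest at 3.15 and 3.01, beside 3.68% of all genes at their highest probe set. This probe set too is named because its unadjusted p was under 0.05 (limma adjusted p = 0.99).

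Numb, an endocytic adaptor that restrains Notch signalling, had the lowest unadjusted p of the Notch genes. It read 6.20 and 6.59 in Crebbp+/- samples 1 and 2 and 5.89 and 5.47 in wild type. Both Crebbp+/- samples lay above both wild-type samples, but arrays overlapped, since Crebbp+/- ran from 6.13 to 6.74 and wild type from 5.13 to 6.27. The difference was 0.72 (SE 0.33, 95% interval -0.13 to 1.57, limma adjusted p = 0.99), with 0.31 and 1.12 within the samples numbered 1 and 2, and from 0.51 to 0.93 with 1 sample or array omitted.

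Where a gene had several probe sets they often differed in sign. Of the 84 probe sets, 47 were above the filter, and 11 genes had more than 1 of these. Signs opposed each other for 6 of the 11, namely Ctnnb1, Apc, Gsk3b, Tcf7l2, Jag2 and Notch1. Fzd3, Dvl1, Notch3, Rbpj and Maml1 kept 1 sign. For 15 genes, Lef1, Axin1, Fzd6, Fzd4, Jag1 and Numb among them, only 1 probe set was above the filter, so no second reading was at hand. Both Crebbp+/- samples lay above both wild-type samples at 9 of the 47 probe sets and below at 6, beside 15.6% and 15.4% of all probe sets tested. The lower ones include the dimmest Gsk3b probe set, which passed the filter only through the wild-type arrays. An unadjusted p under 0.05 was reached at 3 of the 47, 1 each of Lef1, Gsk3b and Maml1, beside 4.84% of all probe sets.

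**Figure D3:**
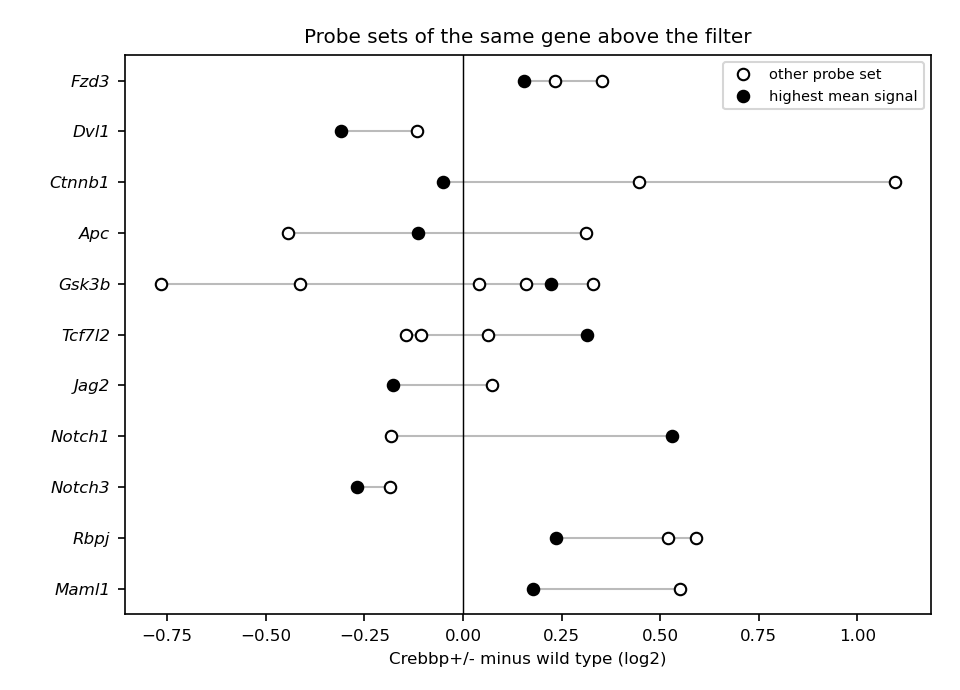
Difference of Crebbp+/- minus wild type (horizontal axis, log2) at every probe set above the filter, for the 11 genes with more than 1, with the probe set of highest mean filled. Ctnnb1 runs from -0.05 to 1.09 and Gsk3b from -0.76 to 0.33, while all 3 probe sets of Rbpj lie between 0.24 and 0.59.

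Same-numbered samples resembled each other for several members, so the gap between the samples of a genotype was set beside the difference between genotypes. The mean gap between samples 2 and 1 was larger than the genotype difference for 12 of 18 Wnt genes and 5 of 8 Notch genes, against 64.6% of all genes. Notch1 was lower in sample 2 by -1.08 in Crebbp+/- and -1.51 in wild type. All 4 arrays of the samples numbered 1 lay above all 4 of those numbered 2 for Gsk3b and Notch1, beside 11.4% of all genes, and below them for Ctnnb1, Gsk3a, Tcf7l1 and Maml1, beside 12.8%. Gaps of opposite sign were seen for Lef1, at -0.11 in Crebbp+/- and 0.29 in wild type, and for Numb, at 0.39 in Crebbp+/- and -0.42 in wild type. The Gapdh 5′ minus 3′ signal was also lower in the samples numbered 2, and its part in these gaps was not tested.

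Genotype differences had 1 sign within both numbers for 8 of 18 Wnt genes and 5 of 8 Notch genes, against 61.9% of all genes. They were positive in both for Fzd6, Fzd7, Axin1, Gsk3b, Lef1, Tcf7l2, Jag1, Notch1, Rbpj and Numb, and negative in both for Fzd4, Dvl1 and Jag2. For Tcf7l2 the value within the samples numbered 1 was 0.0012, and for Rbpj the value within those numbered 2 was 0.04.

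**Figure D4:**
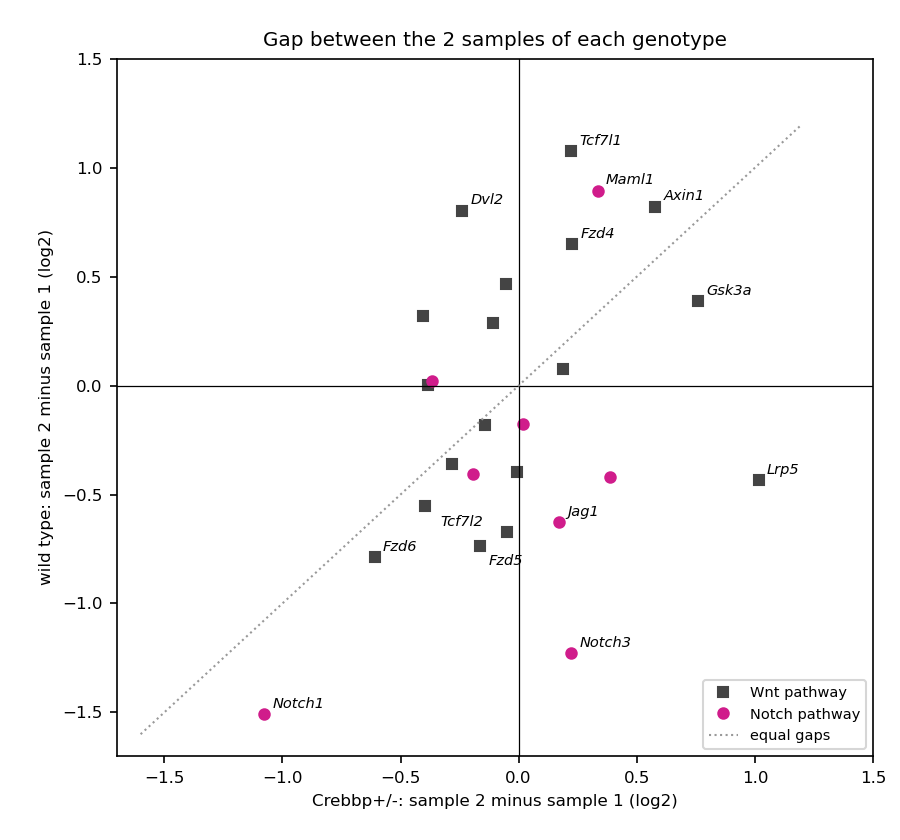
Sample 2 minus sample 1 (log2) in Crebbp+/- (horizontal axis) and in wild type (vertical axis) for the 26 genes above the filter, squares for Wnt and circles for Notch, with a dotted line of equal gaps. Notch1 lies at -1.08 in Crebbp+/- and -1.51 in wild type, below 0 on both axes, while Lrp5 and Notch3 have opposite signs in the genotypes.

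Other genes of the 2 pathways were read from lists of 74 Wnt and 42 Notch genes. Of the Wnt list 73 had a probe set and 30 were above the filter, and of the Notch list 39 had one and 27 were above. None passed the limma test in either direction, and none had an unadjusted p under 0.05. Median differences were 0.08 for the Wnt list, with 21 of 30 positive, and -0.06 for the Notch list, with 12 of 27 positive. Of the 19 Wnt ligands only Wnt5b and Wnt6 were above the filter, close to it at 2.82 to 3.64 in Crebbp+/- and 2.87 to 3.31 in wild type. Myc and Ccnd1, textbook targets of β-catenin and of many other signals, differed by 0.06 (SE 0.20) and 0.11 (SE 0.19).

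The lowest unadjusted p in the further Wnt list belonged to Ctnnbip1, which encodes an inhibitor that keeps β-catenin from TCF proteins. It read 5.03 and 5.34 in Crebbp+/- samples 1 and 2 and 4.73 and 4.83 in wild type, a difference of 0.40 (SE 0.28). All arrays were separated, beside 3.68% of all genes, with nearest arrays of 4.99 in Crebbp+/- and 4.91 in wild type. Wls, the carrier that Wnt proteins need for secretion, Kremen1, a co-receptor of the inhibitor Dkk1, and Csnk1a1, the kinase that primes β-catenin, differed by 0.46, 0.51 and 0.13. Wnt6 and the secreted antagonist Sfrp2 differed by -0.26 and -0.37.

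In the further Notch list Rfng, a Fringe enzyme that adds sugars to Notch receptors, came first. It read 8.33 and 8.98 in Crebbp+/- samples 1 and 2 and 9.28 and 9.27 in wild type, a difference of -0.62 (SE 0.28). All arrays were separated, beside 1.99% of all genes, with nearest arrays of 9.01 in Crebbp+/- and 9.08 in wild type. Mfng, a relative of Rfng, differed by -0.42 and the atypical ligand Dlk1 by -0.36. Dtx3 differed by -0.60, Dtx3l by 0.26 and Aph1b, a γ-secretase subunit, by -0.42. Nrarp, a Notch-induced gene that feeds back on the pathway, was chosen after its values were seen and differed by 0.06 (SE 0.51). It read 7.50 and 6.60 in Crebbp+/- samples 1 and 2 and 7.51 and 6.48 in wild type, so it sorted by sample number as Notch1 did.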

How the data were processed

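Values were the authors' deposited GCRMA signals on the log2 scale, with background correction and normalization made per the submitters' processing notes. Of GCRMA, version and settings: not given in the sources used here. No scanner files were used. Gene names came from the platform annotation, updated by gene identifier to GRCm38.p6. After removal of 64 control probe sets, 34945 of 45037 carried 1 symbol, 932 several and 9160 none listed. Identifiers matched for 34741, and no symbol changed.

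The 2 arrays of each sample were averaged, and limma (version 3.58.1, R version 4.3.3) was fitted to the means with moderation of variances along a trend in intensity, leaving 2 residual and 4.75 total degrees of freedom. The 22518 probe sets above 2.72 were tested and adjusted by Benjamini-Hochberg over all. The procedure was run on simulated data, where the check covered only the median size of the added differences. The number of arrays limits the precision.

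Members and lists were chosen with earlier results of these data known. Sample values are given for genes with separated arrays, the 4 Wnt and 4 Notch genes of lowest p, and core pathway genes; in the further lists the 6 of lowest p are named with Myc and Ccnd1, and Nrarp and some markers were added after their values were seen. Of the further marker lists, hepatocyte, erythroid, macrophage and stromal genes were also read. Alternatives covered replication unit, block, filter, normalization, floor, variance model, probe set choice and omission of samples and arrays.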

Additional observations from a re-analysis of the deposited data

How the results depend on the processing

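No Wnt or Notch member was called under any alternative run. With all 8 arrays taken as independent, limma called 1 probe set, which was no member. The Notch median was 0.010 with no filter. With 1 sample or array omitted the Wnt median ran from 0.0083 to 0.22, the Notch median from 0.015 to 0.28, and calls stayed at 0, including fits in which a lone sample is assumed to vary like the other genotype.

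The sign of 16 of the 26 differences changed when 1 sample or array was omitted, 9 of them without wild-type sample 2, and Notch1, at 0.53 with all samples, was among these. The causes were not tested. Dvl2 was 0.019 with quantile normalization added, and when all probe sets of a gene were averaged Ctnnb1 was 0.50 and Gsk3b -0.071. With 1 sample or array omitted, Apc ran from -0.35 to 0.12, Ctnnb1 from -0.14 to 0.041, Dvl2 from -0.45 to 0.36, Fzd2 from -0.014 to 0.70, Fzd3 from -0.039 to 0.35, Fzd5 from -0.37 to 0.37, Gsk3a from -0.45 to 0.30, Lrp5 from -0.36 to 0.66, Lrp6 from -0.14 to 0.26, Tcf7l1 from -0.83 to 0.24 and Tcf7l2 from -0.023 to 0.65. In the Notch list Jag2 ran from -0.38 to 0.027, Maml1 from -0.27 to 0.63, Notch1 from -0.22 to 1.28, Notch2 from -0.11 to 0.069 and Notch3 from -0.88 to 0.34. Fzd4, Fzd6, Fzd7, Dvl1, Axin1, Gsk3b, Lef1, Jag1, Rbpj and Numb kept their sign in these omissions.

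A replicate block for sample number gave 0 calls over all probe sets, at a lowest adjusted p of 0.11, with 3673 probe sets at an unadjusted p under 0.05, against 1089 without the block. Across probe sets, deviations of same-numbered samples correlated at 0.55, but the labels give them only a shared number.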

Other observations

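Transcripts of other fetal liver cells were read in the same samples, as summed linear signals of marker lists. Of 11 hepatocyte markers 8 were above the filter, and the sum was 1288 and 1351 in Crebbp+/- samples 1 and 2 and 957 and 1885 in wild type. Hnf4a was the largest term of this sum in every sample, at 9.29 and 9.46 in wild type. Alb, Afp and Ttr were higher in wild-type sample 2 than in wild-type sample 1 by 4.63, 4.82 and 4.89, and Alb and Ttr lay below the filter in wild-type sample 1. Of 7 erythroid markers 2 were above the filter, with sums of 2098 and 1565 in Crebbp+/- and 1615 and 1600 in wild type, nearly all of it Tfrc. The other erythroid marker above the filter, Slc4a1, read 2.93 and 3.45 in Crebbp+/- and 2.46 and 2.52 in wild type. Both wild-type samples lay below the filter, so Slc4a1 passed it only through the Crebbp+/- arrays. All 4 Crebbp+/- arrays lay above wild type, beside 3.68% of all genes, but the nearest arrays read 2.531 and 2.528. The difference was 0.70 (SE 0.24), and Crebbp+/- arrays reached 4.37. Of 8 macrophage markers 3 were above the filter, with sums of 707 and 2012 in Crebbp+/- and 992 and 1833 in wild type, nearly all of it Csf1r. Csf1r read 9.31 and 10.90 in Crebbp+/- samples 1 and 2 and 9.81 and 10.76 in wild type, and Cd68 read 5.41 and 5.89 in Crebbp+/- and 6.01 and 5.87 in wild type. Of 8 stromal markers 1 was above it, with sums of 107 and 173 in Crebbp+/- and 84.1 and 172 in wild type. The sums of the genotypes overlapped in all 4 lists, and their part in the Wnt and Notch values was not tested.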
